A study of Mus musculus with 9 samples.

Results

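Pancreatic acinar cells make the digestive juice of the exocrine pancreas. They store proteases, lipases, amylase and ribonuclease as granules of ready or inactive enzyme, and release them into ducts that lead to the gut. Their messenger RNA is dominated by these few secreted products. The digestive enzymes are not typical products of spleen plasma cells, the antibody-secreting cells that carry CD138.

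The 32 genes described here, of 46958 in the count table, encode such acinar products. They were taken by gene symbol from a list drawn up with their levels in these libraries known, so their levels and fold changes are given as a description, with no p-value. Counts of members past a threshold are read in the same way. All 32 symbols were found in the table. They comprise 14 proteases or protease precursors, 5 genes of the lipase class (a lipase cofactor among them), the amylase gene Amy2b, the ribonuclease Rnase1, and 11 others. Most of these 11 encode secreted or granule proteins. Their class is called other secreted proteins below, though it includes Erp27, which encodes a protein of the endoplasmic reticulum.

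The libraries are from CD138+ cells that were isolated with magnetic beads from the spleen. The mice were not immunized and were 3 months old. The design text gives the isolated cells as enriched and not as pure, and each library holds the cells of 1 spleen. There were 3 WT, 3 kFRA and 3 DH-LMP2A mice, all on a mixed C57/BL6x129/SVxBALB/c background. The labels do not spell out the alleles behind the names kFRA and DH-LMP2A, but the kFRA label adds LCDD, light chain deposition disease. No pancreas sample was among the libraries.

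Libraries held 15449026 to 21558128 counts. Levels are given as CPM, which are counts brought to a common library size with edgeR's TMM factors. A count of 0 allows a level of up to 3 counts, which was 0.127 to 0.205 CPM. Reads were not tagged by molecule, so this limit and all intervals cover counting error only. Markers of plasma cells summed to 18890 to 47160 CPM, and all 8 measured were detected in every library. Immunoglobulin genes took 27.3% to 32.5% of counts in DH-LMP2A, 44.0%, 29.2% and 45.4% in kFRA, and 43.6%, 48.6% and 55.4% in WT. Their share was thus lowest in kFRA in the library with the highest acinar level, and its part in that level was not tested. The library of kFRA replicate 2 stood apart for the acinar genes, and results that rest on it are given with and without it.

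Promoter sequences of 5 members are printed here because they cover Ctrb1 and Pnlip, which stand for the abundant enzymes, and Cela1 and Reg2, which departed from them, with Reg1 beside its neighbour Reg2. Each is the 150 bases before the gene's start in RefSeq on GRCm38.p6, read 5′ to 3′ on the gene's strand. Capitals mark 4 motifs that are spelled out after the sequences: a TATA box, a pair of E-boxes and a pyrimidine-rich motif.
Ctrb1, chr8:111691011-111691160, minus strand: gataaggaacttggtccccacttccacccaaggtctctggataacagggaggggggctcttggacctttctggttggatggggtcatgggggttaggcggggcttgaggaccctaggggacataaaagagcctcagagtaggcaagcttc
Pnlip, chr19:58670215-58670364, plus strand: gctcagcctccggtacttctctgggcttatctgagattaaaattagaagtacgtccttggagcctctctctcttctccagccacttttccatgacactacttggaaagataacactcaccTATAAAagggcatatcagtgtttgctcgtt
Cela1, chr15:100687921-100688070, minus strand: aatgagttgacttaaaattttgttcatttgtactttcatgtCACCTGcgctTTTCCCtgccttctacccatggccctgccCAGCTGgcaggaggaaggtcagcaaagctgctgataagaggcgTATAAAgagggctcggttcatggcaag
Reg1, chr6:78425833-78425982, plus strand: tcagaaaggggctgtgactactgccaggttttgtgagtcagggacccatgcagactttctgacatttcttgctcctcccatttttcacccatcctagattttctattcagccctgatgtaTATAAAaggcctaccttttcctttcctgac
Reg2, chr6:78405005-78405154, plus strand: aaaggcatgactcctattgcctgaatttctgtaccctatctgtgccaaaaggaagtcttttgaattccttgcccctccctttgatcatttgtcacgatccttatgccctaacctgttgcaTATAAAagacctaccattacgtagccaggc
In 24 members with a RefSeq promoter entry, the 250 bases before the start were searched on both strands. CACCTG, an E-box that bHLH factors such as PTF1A can bind, was in 15 of 24 (62.5%) and in 17.2% of all 32851 promoters. The TATA box, TATAAA, was in 11 of 24 members (45.8%) and in 12.4% of all promoters. The other E-box searched, CAGCTG, was in 5 of 24 members (20.8%) and in 13% of all promoters. The pyrimidine-rich motif, TTTCCC, was in 8 of 24 members (33.3%) and in 21.9% of all promoters. The joined motif CANNTGNNNNTTTCCC, which contains an E-box and the pyrimidine-rich motif and so overlaps them, was in Cela1, Ctrb1 and Prss1 (12.5%) and in 0.0791% of all promoters. With 5, 6 or 7 bases between its parts, the joined motif was in 0 of 24 members, and in 0.0913%, 0.1% and 0.131% of all promoters. In Ctrb1 the motif lies upstream of the printed bases.

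Transcripts of the acinar genes were detected in all 9 libraries, and most of them were high or low together from library to library. The summed level was 396.5, 960.9 and 1779 CPM in DH-LMP2A replicates 1 to 3. In kFRA it was 96.3, 3256 and 418.2 CPM, and in WT 153.8, 76.4 and 25.6 CPM. All 3 DH-LMP2A libraries lay above all 3 WT libraries, while kFRA ran from within the WT range to above every other library. Means were 1045 ± 695 CPM in DH-LMP2A, 1257 ± 1739 in kFRA and 85.3 ± 64.6 in WT (SD, n = 3 each). In bulk RNA, fewer cells of a type and less RNA per cell cannot be told apart.

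The ratio of the highest to the lowest library within a genotype was 4.49 in DH-LMP2A, 33.8 in kFRA and 6.01 in WT. Without Cela1, which is described below, the ratios were 4.56 in DH-LMP2A, 45.6 in kFRA and 33.0 in WT. The WT mean was then 54.1 ± 56.9 CPM. In kFRA replicate 2 the 32 genes took 68431 counts, or 0.398% of the library. This library had the highest level of 31 of the 32 genes. WT replicate 3 was lowest, or tied for lowest, for 30 of 32, and 18 of 32 were detected there. Without kFRA replicate 2 the kFRA mean was 257 CPM, below each DH-LMP2A library. The single libraries still overlapped, with kFRA replicate 3 at 418.2 CPM and DH-LMP2A replicate 1 at 396.5 CPM.

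**Figure D1:**
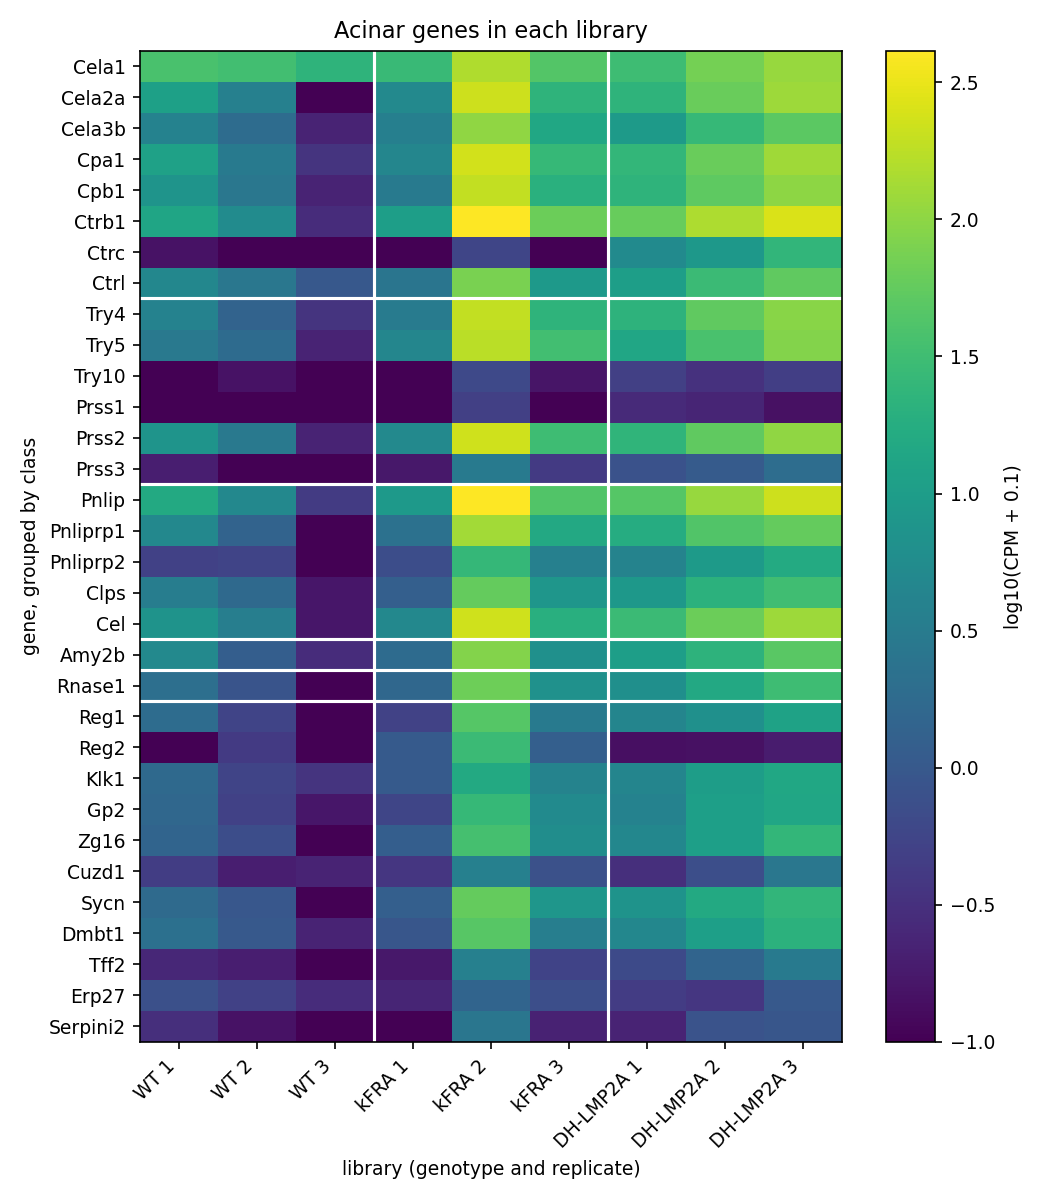
Level of each of the 32 acinar genes (rows, grouped by class with white lines: proteases, trypsin family, lipases, amylase, ribonuclease, other secreted proteins) in each of the 9 libraries (columns), coloured by log10(CPM + 0.1). The column of kFRA replicate 2 is brightest, that of WT replicate 3 is darkest apart from Cela1, and the rows of Ctrc and Reg2 break the column pattern.

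Chymotrypsinogen and the elastases cut proteins in the gut after activation by trypsin. Ctrb1, the main chymotrypsinogen B gene (GRCm38, chr8:111686510-111691010), had 59.8, 148.3 and 259.7 CPM in DH-LMP2A, 10.4, 412.6 and 63.0 CPM in kFRA, and 13.3, 5.51 and 0.191 CPM in WT. The DH-LMP2A libraries were all above the WT libraries, and kFRA replicate 1 fell among WT. Per kilobase of exon Ctrb1 had the highest mean level of the 32 genes in DH-LMP2A and kFRA, at 175.8 and 182.6 CPM per kilobase. In WT its mean was 7.13 CPM per kilobase, below that of Cela1.

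Ctrl, a chymotrypsin-like protease gene that is also on chromosome 8, gave 250, 621 and 1162 counts in DH-LMP2A, 36, 1607 and 143 in kFRA, and 92, 51 and 14 in WT. Its fitted difference between DH-LMP2A and WT was a log2 fold change of 3.48. Cela2a, a pancreatic elastase, gave 528, 1311 and 2641 counts in DH-LMP2A, 73, 4651 and 354 in kFRA, and 221, 71 and 0 in WT. Cela3b, another pancreatic elastase, went from 2 counts in WT replicate 3 to 2210 in kFRA replicate 2. Both followed the order of Ctrb1 among the DH-LMP2A and the kFRA libraries.

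The carboxypeptidases remove residues from the protein's carboxyl end. Cpa1 had 24.5, 61.3 and 126.2 CPM in DH-LMP2A, 4.51, 234.9 and 26.2 CPM in kFRA, and 11.5, 2.96 and 0.255 CPM in WT. Cpb1 was in a near-constant ratio to it, at 111 to 158 Cpa1 counts per 100 Cpb1 counts in the libraries other than WT replicate 3. There the counts were 4 and 2.

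The trypsin family holds the trypsinogens, whose active form switches on the other zymogens. Its 6 members lie in 1 cluster on chromosome 6, and 33.3% of the 75-base windows of Try5 and 43.9% of those of Try4 also occur in other genes, so reads may be split between them in a way the sources do not state. Prss2, with 0.945% of its windows shared, gave 549, 1182 and 2297 counts in DH-LMP2A, 71, 4772 and 488 in kFRA, and 145, 54 and 2 in WT. Try4 gave 510, 1155 and 2076, then 45, 4042 and 351, then 77, 26 and 4 counts in the same order. Both were far more abundant than Prss1, which never exceeded 8 counts, and Try10, which never exceeded 11. Prss3 reached 63 counts, in kFRA replicate 2.

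The lipases split dietary fat, and Clps encodes colipase, the cofactor that holds pancreatic lipase on fat droplets in bile. Pnlip, the pancreatic lipase, had 45.6, 114.0 and 220.8 CPM in DH-LMP2A, 8.55, 401.1 and 42.8 CPM in kFRA, and 15.7, 4.80 and 0.318 CPM in WT. Its order among the libraries of each genotype was that of Ctrb1, with a ratio of 84.8 to 147 Ctrb1 counts per 100 Pnlip counts outside WT replicate 3. Cel, which encodes the bile salt-activated lipase, gave 690, 1375 and 2633 counts in DH-LMP2A, 70, 4786 and 303 in kFRA, and 139, 66 and 1 in WT. Clps gave 196, 457 and 691 counts in DH-LMP2A, 17, 1202 and 126 in kFRA, and 66, 32 and 1 in WT. Pnliprp1 and Pnliprp2, which encode lipase-related proteins, peaked at 2771 and 541 counts, both in kFRA replicate 2.

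Amylase splits starch. Amy2b gave 251, 474 and 1065 counts in DH-LMP2A, 25, 1833 and 103 in kFRA, and 98, 22 and 3 in WT. GENCODE lists this gene as an unprocessed pseudogene, and 22.02% of its 75-base windows also occur in the Amy2a copies, so its counts are uncertain. The Amy2a copies, pancreatic amylase genes that are not among the 32, had a summed level of 236.9, 583.2 and 996.0 CPM in DH-LMP2A, 39.4, 1980 and 187.1 CPM in kFRA, and 91.1, 30.3 and 1.97 CPM in WT. Rnase1, a secreted ribonuclease, gave 148, 328 and 676 counts in DH-LMP2A, 22, 1363 and 107 in kFRA, and 39, 15 and 0 in WT. Amylase and ribonuclease thus had the same highest library and the same lowest library as the lipases.

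Among the other secreted proteins, Sycn (syncollin, of the zymogen granule membrane) gave 169, 337 and 514 counts in DH-LMP2A, 17, 1221 and 126 in kFRA, and 33, 17 and 0 in WT. Gp2, the main glycoprotein of that membrane, gave 91, 231 and 300, then 7, 558 and 85, then 30, 8 and 1. Zg16, a zymogen granule lectin, gave 110, 232 and 537, then 16, 747 and 92, then 27, 12 and 0. These granule proteins were again lowest in WT replicate 3 and highest in kFRA replicate 2. Klk1, a tissue kallikrein, was highest in the same library, at 324 counts, but only just above DH-LMP2A replicate 3, at 305. Dmbt1 reached 1000 counts, and Cuzd1, Tff2 and Serpini2 at most 77, 76 and 53.

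**Figure D2:**
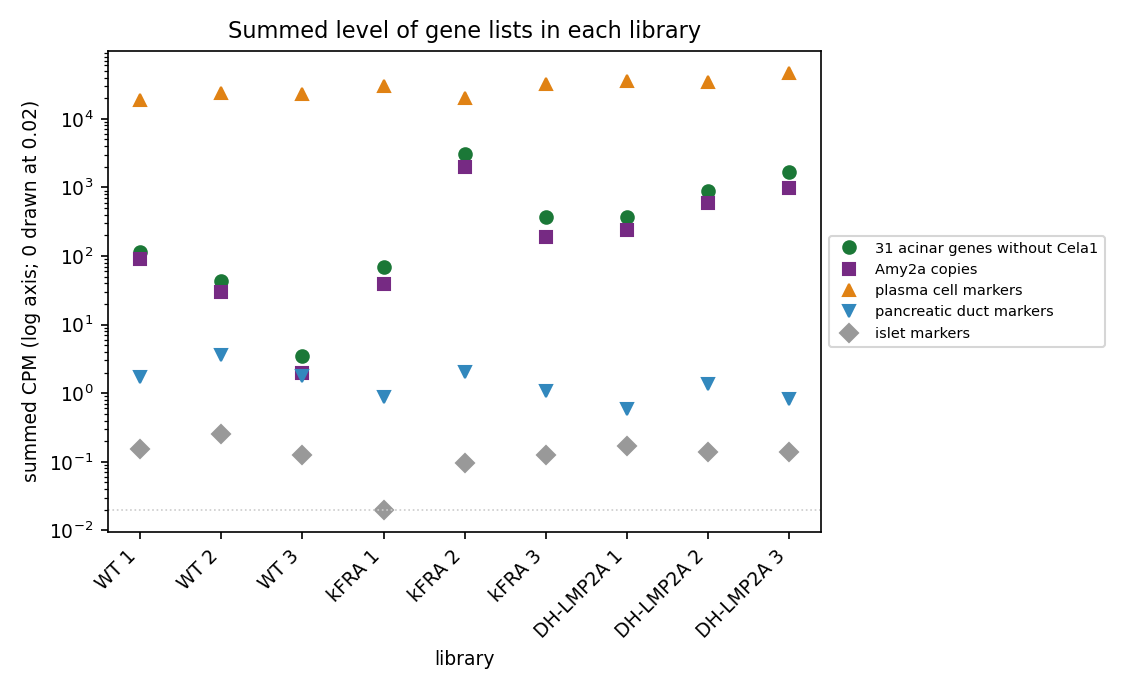
Summed CPM (log axis) of 5 gene lists in each of the 9 libraries, 1 symbol per list and library. The acinar genes without Cela1 and the Amy2a copies move together from WT replicate 3 to kFRA replicate 2, while the plasma cell markers stay between 18890 and 47160 CPM and the islet and duct markers stay low.

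The proportions among the enzymes were compared by taking the pooled DH-LMP2A libraries as the reference, leaving out a DH-LMP2A library when it was itself compared. A library's common factor is the median ratio of its counts to that reference, over members with at least 30 reference counts. Members with at least 10 expected counts were then set against it, with 0.5 added to the counts seen and expected. The common factor was 0.290, 0.876 and 2.73 in DH-LMP2A, 0.0682, 3.25 and 0.391 in kFRA, and 0.128, 0.0479 and 0.00223 in WT. Reg2 had too few reference counts to be compared. It gave 14, 602 and 18 counts in kFRA replicates 1 to 3, against 0.0595, 4.07 and 0.372 expected. In kFRA replicate 2, 28 of the 29 members compared were within 2-fold of the value that this 1 factor gave. The exception among them was Ctrc, and the number within 2-fold is given for the other libraries too. In DH-LMP2A replicates 1 to 3 it was 25 of 26, 27 of 27 and 26 of 26.

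In kFRA replicate 1 it was 18 of 20 and in kFRA replicate 3 it was 23 of 24. In WT replicate 1 it was 20 of 24, and in WT replicate 2 it was 18 of 20. Try4 was at the limit there, with 26 counts against 52.4 expected, and without the added 0.5 it was 17 of 20. Ctrc was beyond 2-fold in each of these 4 libraries, and Cela1 in all of them but kFRA replicate 3. WT replicate 1 also had Try5 and Pnliprp2 beyond it. WT replicate 3 had too few counts for any comparison.

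The fold between single libraries varied among members. From DH-LMP2A replicate 1 to replicate 3 the median ratio of CPM was 4.49 over 26 members, from 2.54 for Prss3 to 6.22 for Try5. From kFRA replicate 1 to replicate 2 it was 46.7 over 21 members, from 5.41 for Cela1 to 66.0 for Cpb1. From WT replicate 2 to kFRA replicate 2 it was 72.8 over 19 members, from 4.57 for Cela1 to 145 for Try4. Each used members with at least 10 counts in the lower library, which leaves out Ctrc from the last 2 and Reg2 from the first and the last.

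Class shares were computed on the summed counts without Cela1, a choice made after its level in WT was seen. Proteases took 59.98% ± 1.42 in DH-LMP2A, 61.4% ± 2.56 in kFRA and 58.4% ± 1.47 in WT (SD, n = 3 each). Lipases took 27.9% ± 0.922 in DH-LMP2A, 25.4% ± 1.79 in kFRA and 22.2% ± 8.19 in WT. The protease and lipase shares of the genotypes overlapped within these spreads, over libraries whose counts ran from 55 to 65228.

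The trypsin family took 16.8% ± 0.499 in DH-LMP2A, 20.2% ± 2.42 in kFRA and 13.47% ± 1.15 in WT. Its shares did not overlap between genotypes: 12.3% to 14.5% in WT, 16.4% to 17.4% in DH-LMP2A and 18.4% to 22.9% in kFRA. The counting interval of kFRA replicate 1, 16.1% to 20.9%, reached into the DH-LMP2A range, that of WT replicate 3, 7.56% to 26.2%, spanned all of these ranges, and with Cela1 counted its share lay below all 3 of DH-LMP2A. Amy2b took 2.77% ± 0.258 in DH-LMP2A, 2.35% ± 0.559 in kFRA and 4.12% ± 1.43 in WT. Rnase1 took 1.76% ± 0.0840 in DH-LMP2A, 2.03% ± 0.213 in kFRA and 1.16% ± 1.01 in WT. With 55 counts, WT replicate 3 carries wide counting error: its lipase share was 12.7% with a 95% Wilson interval of 6.30% to 24.0%, against 27.0% and 26.9% in WT replicates 1 and 2.

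**Figure D3:**
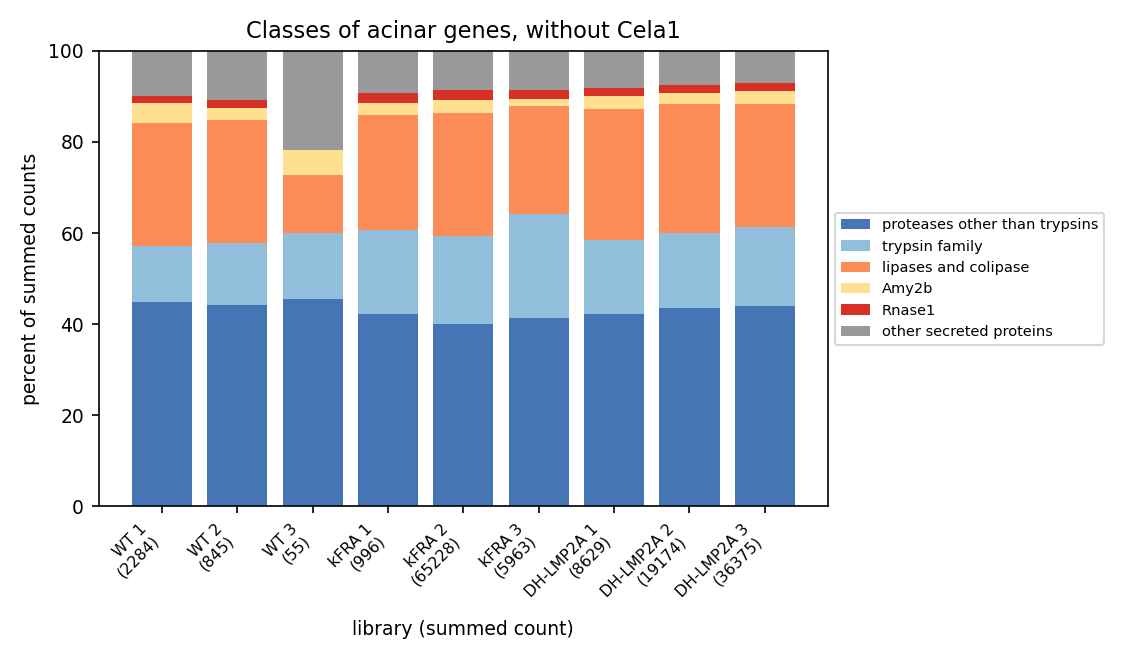
Percent of the summed counts of 31 acinar genes (without Cela1) that each class took, as stacked bars from 0 to 100, 1 bar per library with its summed count under it. The bars of lipases, and of proteases with the trypsin family added, are alike in 8 libraries. The trypsin family alone runs from 12.3% in a WT library to 22.9% in a kFRA library. WT replicate 3 rests on 55 counts.

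Ctrc encodes chymotrypsin C, which trims and degrades trypsinogen. It gave 124, 181 and 514 counts in DH-LMP2A, 0, 10 and 0 in kFRA, and 1, 0 and 0 in WT. All DH-LMP2A libraries were high, and the 10 counts of kFRA replicate 2 came from the library in which 31 of the other genes were highest. Per 100 Ctrb1 counts, Ctrc had 8.78, 5.66 and 9.06 counts in DH-LMP2A, with 95% intervals of 7.31 to 10.5, 4.88 to 6.58 and 8.28 to 9.91 (Wilson).

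In kFRA replicate 2 the ratio was 0.115 (0.0626 to 0.212). With 0 counts, kFRA replicates 1 and 3 allow up to 1.97 and 0.299, and WT replicate 2 up to 2.78. WT replicate 1 had 0.382 (0.0672 to 2.17). The common factor of kFRA replicate 2 gave 834 expected Ctrc counts against the 10 seen, and that of kFRA replicate 3 gave 76.1 against 0. In WT replicate 1 the expectation was 30.9 against 1, and in WT replicate 2 it was 11.5 against 0. In kFRA replicate 1 it was 12.2 against 0. Outside DH-LMP2A, Ctrc thus did not keep its proportion to the other enzymes.

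Ctrc lies at chr4:141814962-141846359 on GRCm38, where it shares exons with Cela2a on its own strand and with Casp9 on the opposite strand. Of its 75-base windows, 15.7% also occur in Cela2a. Reads in shared exons may be counted for either gene or for neither, and the setting is not given in the sources used here. Cela2a kept its proportion to the other enzymes within 2-fold in the 8 libraries with enough counts.

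Reg2 and Reg1 encode secreted lectin-like proteins of the regenerating family. Reg2 gave 1, 1 and 2 counts in DH-LMP2A, 14, 602 and 18 in kFRA, and 0, 6 and 0 in WT. Reg1, its neighbour on chromosome 6, gave 103, 137 and 266 counts in DH-LMP2A, 6, 975 and 48 in kFRA, and 35, 9 and 0 in WT. Reg1 followed the enzymes and Reg2 did not: DH-LMP2A replicate 3 had 266 counts of Reg1 and 2 of Reg2.

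Per 100 Ctrb1 counts, Reg2 had 0.0708, 0.0313 and 0.0352 counts in DH-LMP2A. In kFRA it had 9.21 (5.36 to 15.8), 6.94 (6.39 to 7.54) and 1.79 (1.13 to 2.84). WT was split, with 5.56 (2.49 to 12.4) in replicate 2 and 0 in replicate 1, which allows up to 1.15. The kFRA intervals lay above all 3 DH-LMP2A intervals. The ratio differed among kFRA libraries too, beyond counting error, since the interval of replicate 3 did not reach those of replicates 1 and 2. With 1 library per mouse, differences between mice, isolations and libraries cannot be told apart. The printed Reg1 and Reg2 promoters both have TATAAA at 30 bases before the start. Of the windows of Reg2, 1.60% occur in another gene.

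**Figure D4:**
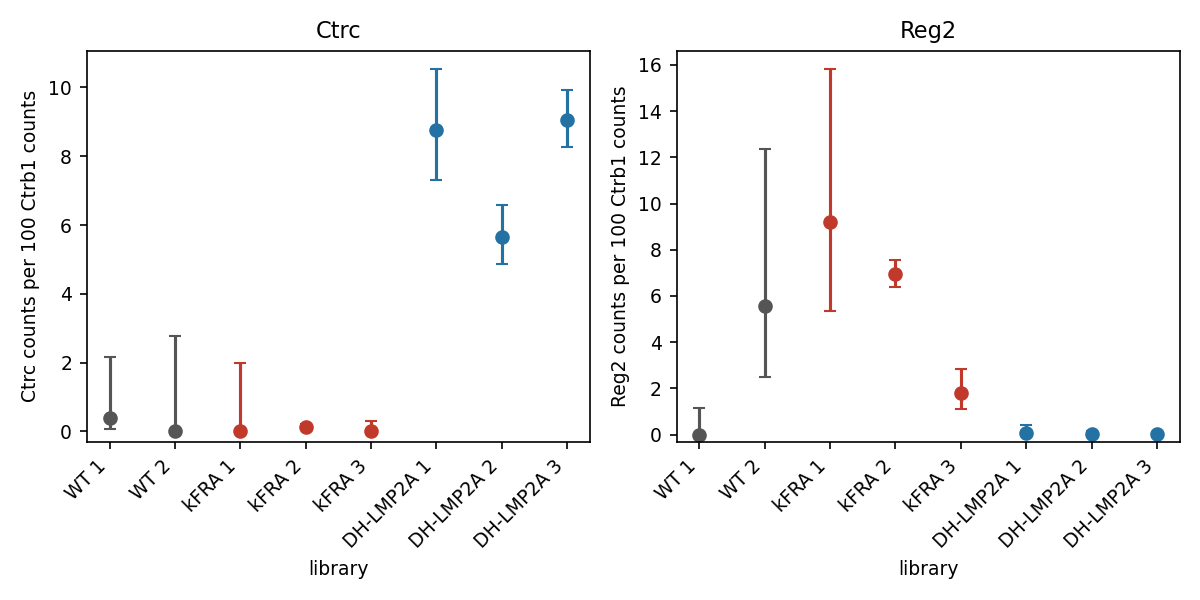
Counts of Ctrc (left) and Reg2 (right) per 100 Ctrb1 counts in 8 libraries, with 95% Wilson-based intervals, or, where the count is 0, a bar up to the limit of 3 counts; WT replicate 3 had 3 Ctrb1 counts and is not drawn. Ctrc is at 5.66 to 9.06 in the DH-LMP2A libraries and at 0 to 0.382 elsewhere, where the bars reach up to 2.78; Reg2 is at most 0.0708 in DH-LMP2A and 1.79 to 9.21 in kFRA.

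Cela1, another elastase gene (chr15:100674425-100687920), held its level where the other enzymes were near 0. It had 31.4, 71.4 and 114.3 CPM in DH-LMP2A, 28.2, 152.4 and 44.2 CPM in kFRA, and 38.1, 33.3 and 22.1 CPM in WT. The kFRA and DH-LMP2A ranges both overlapped WT. Cela1 made up 24.8% to 86.3% of the summed member counts in WT and 4.68% to 29.3% in kFRA. Per 100 Ctrb1 counts it had 52.5, 48.1 and 44.0 counts in DH-LMP2A, 271, 36.9 and 70.0 in kFRA, and 287, 605 and 11567 in WT. It is expressed beyond the pancreas, and none of its 75-base windows occur in another gene. It was therefore left out of the sums above where stated.

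Erp27, which encodes a protein of the endoplasmic reticulum, gave low counts throughout, at 8, 6 and 20 counts in DH-LMP2A, 2, 29 and 10 in kFRA, and 13, 8 and 3 in WT. Its level ran from 0.137 to 1.38 CPM, both in kFRA. Cela1 and Erp27 had the smallest differences between kFRA and WT of the 30 members tested, at log2 fold changes of 1.27 and 0.79.

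**Figure D5:**
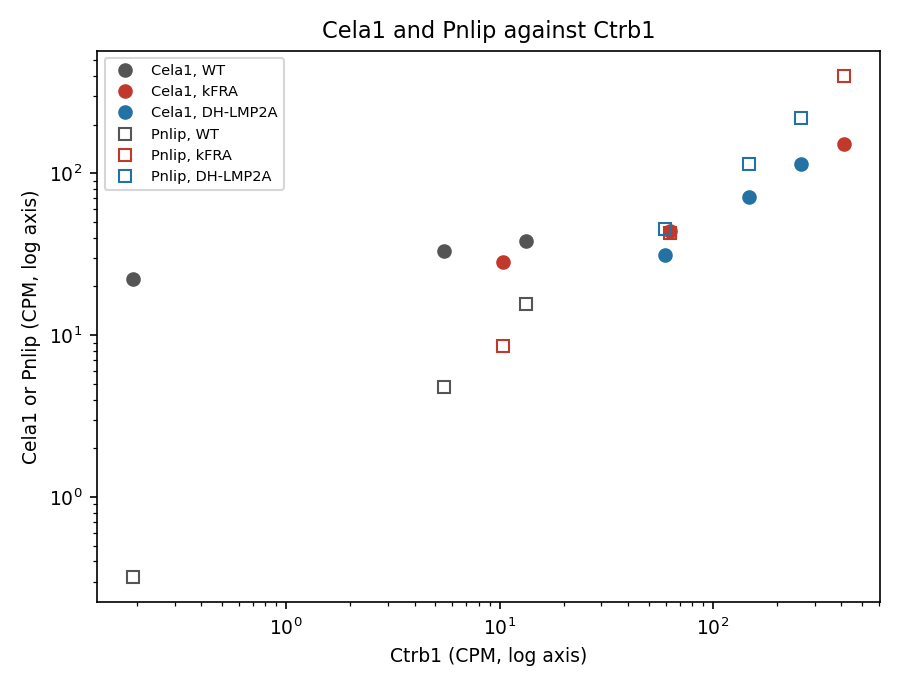
CPM of Cela1 (filled circles) and of Pnlip (open squares) against CPM of Ctrb1, both axes logarithmic, 1 point per library, coloured by genotype. Pnlip falls with Ctrb1 down to 0.318 CPM, whereas Cela1 stays between 22.1 and 152.4 CPM.

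The label of the list was set against marker genes of other sources. Other exocrine genes were measured too: the Amy2a copies, and Spink1, an acinar trypsin inhibitor, which gave at most 52 counts. The acinar transcription factor gene Rbpjl gave 27 counts in kFRA replicate 2 and at most 4 elsewhere. Ptf1a, its partner, gave at most 2. Among 8 pancreas transcription factor genes, 3 were at 0 in every library.

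Of 12 islet markers, 7 were at 0 in every library and none exceeded 4 counts. Of 7 duct markers, Cftr and Sox9 were at 0 everywhere, and the sum was 0.592 to 1.35 CPM in DH-LMP2A, 0.889 to 2.05 in kFRA and 1.72 to 3.62 in WT. Stomach markers never exceeded 4 counts and mesothelium markers never exceeded 3. Of 6 salivary gland genes, 5 were at 0 and Amy1 gave 4 to 14 counts. In WT replicate 3 the duct markers summed to 28 counts, against 55 counts of acinar genes without Cela1. Of 7 liver markers, Apoa2, an apolipoprotein, had the highest count, 47. They summed to 1.35 to 2.11 CPM in DH-LMP2A, 1.64 to 3.64 in kFRA and 0.382 to 0.867 in WT. These sums were 32, 31 and 46 counts in DH-LMP2A, 24, 56 and 58 in kFRA, and 15, 17 and 6 in WT. Apoa2 alone gave 27, 23 and 39, then 20, 47 and 39, then 7, 9 and 0 of them. The sums thus followed mainly this gene, the only 1 of the 7 with enough counts to be tested. Apoa2 was higher in kFRA than in WT by 2.81 on the log2 scale (edgeR adjusted p = 0.0171). Of 7 adipocyte markers, only Car3, a carbonic anhydrase, had enough counts to be tested. Car3 gave 13, 13 and 29 counts in DH-LMP2A and at most 3 elsewhere, and was higher in DH-LMP2A than in WT by 4.29 (edgeR adjusted p = 0.00979). All 7 summed to 15, 16 and 32 counts in DH-LMP2A, 4, 6 and 6 in kFRA, and 2, 10 and 2 in WT. Most of the DH-LMP2A counts were thus of Car3, and most of those in WT replicate 2 were of other markers. The part of these sources in the acinar levels was not tested. How they came to be in spleen libraries was not tested.

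Markers of red blood cell precursors moved with the acinar genes between WT and the other genotypes. They summed to 2426, 2530 and 12852 CPM in DH-LMP2A, 1094, 2176 and 2584 CPM in kFRA, and 49.7, 187 and 333 CPM in WT, and all 8 had at least 3 counts in every library. Their order within kFRA was not that of the acinar genes, which peaked in replicate 2. Their part in the acinar difference was not tested. The sum of 8 myeloid markers moved the other way, at 495 to 1484 CPM in DH-LMP2A, 833 to 1452 in kFRA and 1930 to 3297 in WT. Not all 8 did so: 1 had a positive log2 fold change in each comparison with WT. Mpo had mean levels of 1.76 CPM in DH-LMP2A, 1.19 in kFRA and 0.424 in WT. Plasma cell markers were lowest among kFRA in replicate 2, at 20401 CPM.

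The fit across 14199 genes used edgeR's quasi-likelihood test, and a gene passed at a Benjamini-Hochberg adjusted p under 0.05. In it, 30 members had enough counts; Try10 and Prss1 did not. Between kFRA and WT, 17.8% of genes passed, 6.68% as higher and 11.1% as lower. Beside this, 8 of 30 members were past the threshold, all higher in kFRA: Cela3b, Try4, Try5, Pnliprp2, Rnase1, Reg2, Zg16 and Sycn. The median log2 fold change was 4.36 over the members and -0.04 over all genes. Libraries did not overlap, with kFRA higher, for 3 members and for 14.2% of genes. The count fell to 0 when any 1 WT library was left out, to 2 without kFRA replicate 2, and rose to 20 without kFRA replicate 1.

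Between DH-LMP2A and WT, 12.4% of genes passed, 5.07% as higher and 7.3% as lower. Ctrc, Try5, Klk1 and Pnliprp2 were past it, all higher in DH-LMP2A, and Ctrc had a log2 fold change of 8.98 with a standard error of 1.26. The median was 3.94 over the members and -0.01 over all genes. Libraries did not overlap, with DH-LMP2A higher, for 25 members and for 17.5% of genes. Reg2 was the 1 member with a negative value, -0.79 with a standard error of 2.57. Leaving out any 1 of the 6 libraries left 1 member past the threshold.

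Between kFRA and DH-LMP2A, 5.02% of genes passed, 1.73% as higher and 3.3% as lower. The members past it were Reg2, with a log2 fold change of 7.29 (standard error 1.71), and Ctrc, with -6.02 (0.96). The median over members was 0.29, and 26 of 30 were positive. That direction depended on single libraries. Without kFRA replicate 2 the median was -2.09, 29 of 30 were negative, and Ctrc and Reg2 were still past the threshold. Without DH-LMP2A replicate 1 the median was -0.08 and 19 of 30 were negative. Ctrc was past it in 13 of 13 settings, with values of -10.87 to -5.13, and Reg2 in 7 of 13, with values of 4.05 to 7.82. Reg2 did not pass when any 1 DH-LMP2A library was left out. Ctrb1 and Pnlip had 0.06 and 0.25. The 3 comparisons share libraries, so their values are not independent of each other.

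A list of other exocrine pancreas genes, none of them members, was put through the same fit, and 16 of the 31 in the table had enough counts. Between kFRA and WT, 3 rose: Amy2a2, an amylase copy, by a log2 fold change of 4.59 (standard error 1.30, edgeR adjusted p = 0.0390), Cela3a, an elastase, by 4.55 (1.25, adjusted p = 0.0352), and Gnmt, a methyltransferase, by 1.97 (0.43, adjusted p = 0.0147). Without WT replicate 2 none of the list passed, and without WT replicate 1 or 3, 1 did. The other amylase copies and Pla2g1b, the pancreatic phospholipase A2, missed the threshold, Amy2a3 at an adjusted p of 0.0921. The list's median was 4.20, and 13 of 16 were positive. Amy1, Tmed6 and Nupr1 were near 0, at -0.04, -0.02 and 0.13, and Gatm had -0.98. Between kFRA and DH-LMP2A none passed, with a median of 0.33. Between DH-LMP2A and WT the median was 3.98, and 1 gene passed: Gatm, which makes a creatine precursor, fell by 1.74 on the log2 scale (0.37, edgeR adjusted p = 0.0154), but did not pass without WT replicate 1. Over all genes, 17.8% passed between kFRA and WT (6.68% as higher), 5.02% between kFRA and DH-LMP2A, and 12.4% between DH-LMP2A and WT. Beside these shares, the counts of 3, 0 and 1 of 16 are given as a description. This list was also drawn up with results known, and Amy2a2 to Amy2a4 share all of their 75-base windows.

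Likeness to the acinar genes was measured as the root mean square difference of centred log2 CPM from the members' median pattern over the 9 libraries, for 13730 genes with at least 90 counts. The 9 nearest genes that are not members were all on the other exocrine list. Among them were Amy2a4 (0.31), Amy2a5 (0.43), Amy2a3 (0.49), the trypsinogen-like 2210010C04Rik (0.51), Amy2a1 (0.53), Amy2a2 (0.60), Cela3a (0.85) and Pla2g1b (0.90). The next was Cd36, a fatty acid receptor, at 1.35, after which came Spink1 at 1.37. Cd36 had its highest level in DH-LMP2A replicate 1, at 587 CPM, where the acinar genes were lowest in that genotype. Of the 20 nearest, 10 were on the exocrine list. That list was drawn up with results of these data known, so its nearness is a description and no separate support. Of the windows of each Amy2a copy, 47.8% to 100% also occur in other genes, other Amy2a copies among them. Their patterns are therefore not independent of each other.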

How the data were processed

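Gene counts were deposited by the authors as 1 table of whole-number counts for 9 libraries, along with gene lengths. Per the labels' protocols, RNA went into stranded, poly(A)-type mRNA libraries (TruSeq Stranded mRNA) that were sequenced as 75-base pairs on a NextSeq 500. Per the submitters' processing notes, STAR 2.4.0a, featureCounts (Subread 1.5.0-p3), DESeq2 and the build mm10/GRCm38 were used. The strand setting and the treatment of reads with several matches are not given in the sources used here.

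The members and gene lists were chosen with earlier results of these data known. From the counts, edgeR 4.0.16 in R 4.3.3 gave TMM-scaled CPM and a quasi-likelihood fit over all 9 libraries by genotype, after filterByExpr kept 14199 genes. The fit was tested on simulated data. DESeq2 1.42.0 was an alternative, with others listed in the closing section. Log2 CPM for likeness used a prior count of 2. The genes named were all 32 members, exocrine genes past the threshold, and those nearest the members in pattern among the 20 most like them; 1 item is not reported here. Libraries of a genotype differed by more than counting noise, with a chi-square statistic of at least 17.3 for each degree of freedom. Each library comes from a separate spleen, so the spread includes differences between mice, isolations and libraries. Promoters are RefSeq's on GRCm38.p6; Ctrc, Try5, Try10, Clps, Zg16, Dmbt1, Tff2 and Erp27 were not matched.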

Additional observations from a re-analysis of the deposited data

How the results depend on the processing

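Counts of acinar members past the threshold depended on the setting. With no filter on low counts they were 25 between kFRA and WT and 20 between DH-LMP2A and WT, and the other exocrine genes numbered 13 and 7. DESeq2's Wald test gave 24, 18 and, between kFRA and DH-LMP2A, 1 member, with 13 and 10 other exocrine genes and 1405 genes in all between kFRA and DH-LMP2A against 713. With only the 6 libraries compared, members numbered 3, 22 and 1, and other exocrine genes 1 and 7. Scaling by library size alone gave 1 member between kFRA and DH-LMP2A and 0 other exocrine genes between DH-LMP2A and WT. The cause was not tested.

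With the replicate block, 2 members passed between kFRA and WT, 2 between DH-LMP2A and WT, and 2 other exocrine genes between DH-LMP2A and WT, and the members' median between kFRA and DH-LMP2A turned to -0.50. Deviations of same-numbered libraries correlated at -0.225 to 0.194. For kFRA with WT, kFRA with DH-LMP2A and DH-LMP2A with WT, 1, 3 and 3 of 6 libraries correlated best with their own number. With so few libraries these values cannot show whether same-numbered libraries shared a preparation, which was not tested.

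Leaving out 1 library gave 1271 to 5632 genes between kFRA and WT, 352 to 3299 between kFRA and DH-LMP2A and 932 to 1408 between DH-LMP2A and WT, the highest of the first 2 without kFRA replicate 2. Members then numbered 0 to 20, 1 to 2 and 1 to 1, and other exocrine genes 0 to 5, 0 to 1 and 0 to 1. The summed CPM ranged over 679 to 1370 in DH-LMP2A, 257 to 1837 in kFRA and 51.0 to 115 in WT. With Cela1, proteases took 62.9%, 67.1% and 79.5% in DH-LMP2A, kFRA and WT. They took 67.0% per kilobase in DH-LMP2A, 56.1% and 60.04% without trypsins in DH-LMP2A and kFRA, and 59.98%, 61.4% and 58.4% without Cela1, an alternative chosen after seeing the data. Depth limits WT replicate 3, where 55 counts remained without Cela1.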

Other observations

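Some genes with roles in both acinar and plasma cells stood high in every library. Bhlha15 (Mist1), a transcription factor of both cell types, gave 2116 to 4207 counts. It is therefore no marker of acinar RNA in these libraries. Of 8 such genes tested, 5 were higher in kFRA than in WT and 3 higher in DH-LMP2A than in WT by edgeR's test, where 6.68% and 5.07% of all genes were higher, with medians of 0.86 and 0.43 on the log2 scale, far smaller than those of the acinar enzymes.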
